A study of Mus musculus with 19 samples.

Results

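miR-21 was the subject of these measurements: 1 of the 696 miRNAs (microRNAs) on a 1-colour Agilent array, chosen by its name, mmu-miR-21, and by no measured value. It was read by 2 probes of 10 spots each on all 19 arrays. Each array held liver RNA of a male MutaMouse animal (transgenic mouse strain 40.6, which carries a bacterial reporter for scoring mutations), 10 weeks old. Each animal had 28 daily gavages of DB[a,h]A (dibenz[a,h]anthracene, a polycyclic aromatic hydrocarbon) in olive oil, and livers were taken 3 days after the last dose. The groups were the control, given olive oil alone (n = 5), and the low dose of 6.25 mg/kg/day (n = 5), middle dose of 12.5 mg/kg/day (n = 4) and high dose of 25 mg/kg/day (n = 5). All groups shared strain, sex, age, vehicle and route. RNA came from a piece of whole liver, so fewer cells of a type and less RNA per cell cannot be told apart. Per the series title, the question was whether liver miRNAs respond to this exposure.

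A miRNA guides the silencing complex to messenger RNAs that match its seed, the bases near its 5′ end. miR-21 is known for rising in inflamed, fibrotic and tumour-bearing tissue, where it lowers growth inhibitors such as Pdcd4. In liver it is made by hepatocytes and by other cell types of the tissue.

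The sequences below show miR-21 beside the strands and relatives that its probes or its targets could be confused with, from RefSeq on build GRCm38.p6, written 5′ to 3′ with the seed (bases 2 to 8) in capitals.
mmu-miR-21a-5p: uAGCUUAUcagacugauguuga
mmu-miR-21c: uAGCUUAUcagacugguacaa
mmu-miR-21b: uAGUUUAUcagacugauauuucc
mmu-miR-21a-3p: cAACAGCAgucgaugggcuguc
The array's mmu-miR-21 corresponds to mmu-miR-21a-5p through the listed synonyms of Mir21a, and miR-21*, the other strand of the hairpin, corresponds to mmu-miR-21a-3p. miR-21 lies at chr11:86584120-86584141 on the minus strand. Its hairpin, of 92 bases, lies within the span of Vmp1 on the same strand, 209 bases from the 3′ end of that gene. Whether that place is exonic or intronic is not given by the table used here. Of 1738 mature mouse miRNAs in the table, 2 have this seed, miR-21 itself and miR-21c. The table does not list every miRNA on the array, so further partners with this seed are not excluded. miR-21c shares the leading 15 bases of miR-21 and first differs by A16G, counted from 1 at the 5′ end with the base of miR-21 first. miR-21b differs inside the seed, by C4U.

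miR-21 was detected on 19 of 19 arrays. miR-21*, the passenger strand, was detected on 1 of 19 arrays, that of low dose replicate 12. The highest signal of its 4 probes was 7.31 in the low dose group. It was 6.24 at the middle dose, 1.97 at the high dose and 4.23 in controls. That strand did not pass the filter of detection on at least 4 arrays and was not tested. miR-590-5p, which has been grouped with miR-21, has no entry among the mature sequences used here. It was therefore not in the count of miRNAs with the seed of miR-21, and whether it shares that seed was not tested. It was detected on 0 of 19 arrays by 3 probes. Those probes had signals of at most 0.839, 0.607 and 0.979 at the high, middle and low dose and 1.81 in controls.

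All 4 groups were present on every one of 3 slides, with the controls split as 1, 1 and 3. On the slides, all 5 high dose arrays were in row 2, and 4 of 5 controls were in row 1. Whole arrays were dimmer at the middle and high doses. The 75th percentile of signal averaged 357 ± 111 in controls, 301 ± 74.6 at the low dose, 215 ± 60.7 in middle dose livers and 195 ± 37.4 in high dose livers (SD, n = 5, 5, 4 and 5). Labelling spike-ins, RNA added in equal amount to every sample, averaged 12.36, 12.25, 11.89 and 11.52 on the log2 scale in that order. An array detected 200.6, 194.6, 169.5 and 169.8 miRNAs on average in the same order. The part of this dimming in the results below was not tested.

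After scaling, the levels of miR-21 overlapped among all groups, and no difference passed the test. Levels here are log2 signal minus that of the array's 75th percentile, for the brighter of the 2 probes. Controls had levels of 5.60, 4.90, 5.09, 5.02 and 5.13. Low dose livers had levels of 5.31, 4.88, 5.07, 4.87 and 5.26. Middle dose livers had levels of 5.43, 5.25, 5.19 and 5.10, and high dose livers had levels of 5.12, 4.76, 5.26, 5.60 and 5.14. The groups overlapped throughout. No exposed liver, of 14, lay above every control, while 1 high dose and 2 low dose livers lay below every control. The means were 5.15 ± 0.27 in controls, 5.08 ± 0.21 at the low dose, 5.24 ± 0.14 in middle dose livers and 5.18 ± 0.30 in high dose livers (SD, n = 5, 5, 4 and 5). In the order of these means, the middle dose was highest and the low dose lowest, and no neighbours in it differed beyond their spread.

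**Figure D1:**
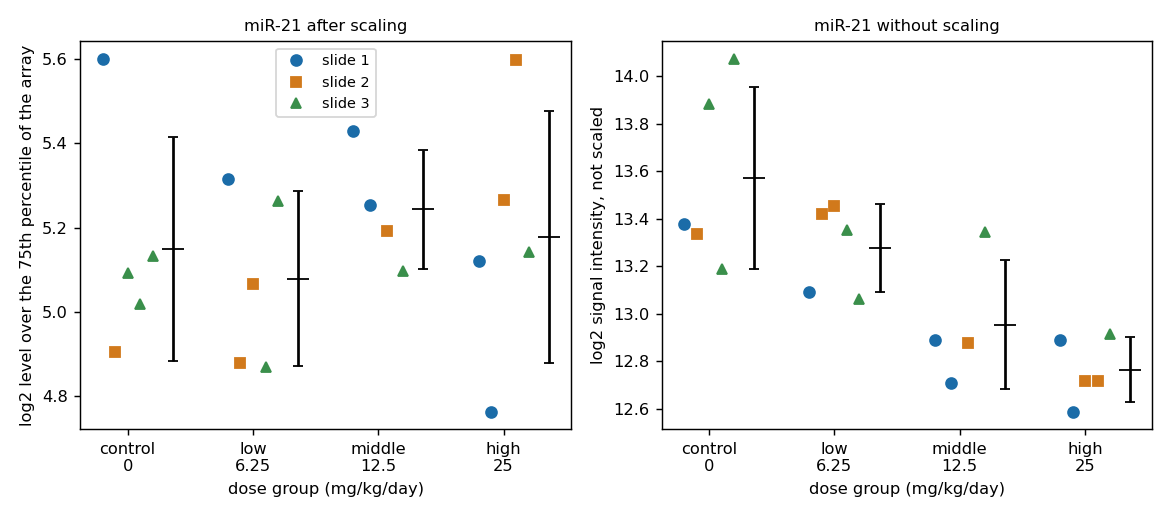
Each point is miR-21 on 1 array, by dose group in mg/kg/day, with symbols for the slide; bars are the mean and SD of the group. On the left, log2 levels over the 75th percentile of the array overlap among all groups; on the right, log2 signal intensity without scaling averages 12.76 at the high dose against 13.57 in controls, with no overlap.

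No comparison of miR-21 passed the test. Relative to control, the log2 difference was -0.01 at the high dose (SE 0.16, 95% interval -0.37 to 0.34), a fold of 0.990 with an interval of 0.776 to 1.26. At the middle dose it was 0.05 (SE 0.17, -0.32 to 0.42), a fold of 1.03 with an interval of 0.80 to 1.33. At the low dose it was -0.08 (SE 0.16, -0.42 to 0.25), a fold of 0.943 with an interval of 0.745 to 1.19. The adjusted p from limma was 1, 1 and 0.998 at the high, middle and low dose. Changes of up to about these bounds in either direction are not excluded by the arrays, whose number limits the precision. The bounds hold for the scaling used here. With the percentile taken over all probes, the middle dose difference was -0.44, outside them. Without scaling it was -0.53, and the high dose difference was -0.72, both outside. Under quantile normalization and spike-in scaling, every dose lay within them. The mean of the 3 doses differed from control by -0.02 (SE 0.13), the slope was 0.00066 per mg/kg/day (SE 0.0060), and the F test over the 4 groups gave F = 0.217, each with a limma adjusted p of 1. Between doses, the log2 difference was 0.07 for high minus low, 0.13 for middle minus low and -0.06 for high minus middle, with limma adjusted p of 0.953, 0.819 and 1.

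Of the 208 miRNAs tested, 5 were called at the high dose, 12 at the middle dose and 9 at the low dose (limma, adjusted p under 0.05), all higher than in controls, which is 2.4, 5.77 and 4.33%. That direction depended on the scaling. With the percentile taken over all probes, 1 was higher and 35 were lower at the middle dose. Under quantile normalization 3 were higher and 13 lower at the high dose, and 1 higher and 8 lower at the middle dose. Scaled to the labelling spike-ins, 23 were higher and 0 lower at the high dose. The share called was 8.17% for the mean of the doses and 0.962% for both the trend and the F test. miR-21 was called in none of these comparisons, and by p-value at the high, middle and low dose it stood 179th, 162nd and 125th of the 208. Of the 208, 23 sat at the floor on every array, so they could only stand behind miR-21 in that order. The median log2 difference of all tested miRNAs was 0.05, 0.11 and 0.07 at the high, middle and low dose. Without those 23, it was 0.09, 0.14 and 0.10 over the other 185. Relative to that median, miR-21 lay lower in 15 of 15 pairs of dose and scaling, over 5 scalings, by 0.06 to 0.29. The pairs rescale the same arrays and share their controls. Subtracting the median removes much of a scaling, so the pairs are not separate results. Other alternatives went the other way at the high dose. There miR-21 lay above the median without slide 1 (0.30 against 0.09) and in the authors' deposited value table. This is a description with no test.

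**Figure D2:**
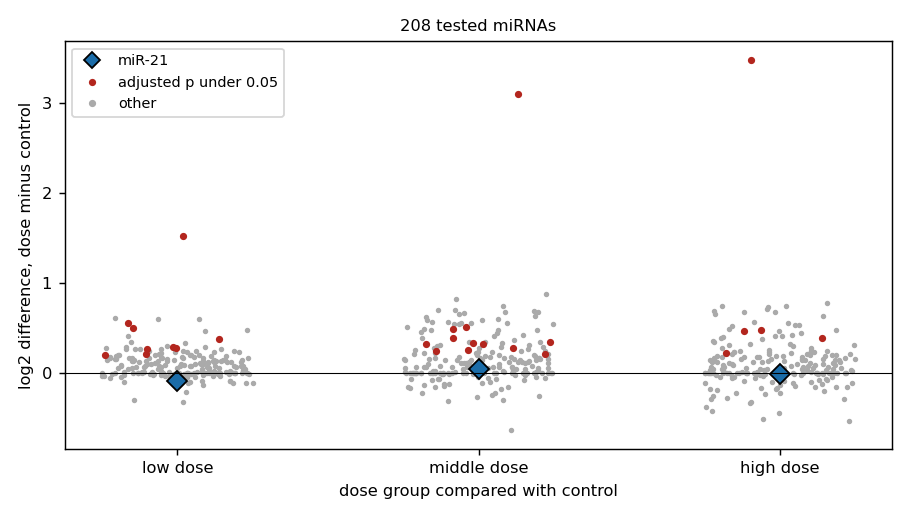
Each dot is the log2 difference, dose minus control, of 1 of 208 tested miRNAs at the low, middle and high dose, with red for a limma adjusted p under 0.05. The diamond for miR-21 sits at -0.08, 0.05 and -0.01, within the crowd; the dots far above are miR-34a.

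An exact permutation test of miR-21 alone, two-sided and over all arrangements of the arrays, gave differences of 0.03, 0.09 and -0.07 at the high, middle and low dose. The exact p was 0.865, 0.532 and 0.667 (0.865 each after adjustment over the 3 doses), where 0.00794 was the smallest p possible. With arrangements within slides, the differences were -0.02, -0.0090 and -0.05, with exact p of 0.944, 1 and 0.65. The slides disagreed in direction. High dose minus control was -0.66 on slide 1, 0.53 on slide 2 and 0.06 on slide 3. The same differences were -0.26, 0.29 and 0.01 for the middle dose and -0.29, 0.07 and -0.02 for the low dose. Slides 1 and 2 held 1 control each, which were the highest and the lowest of all controls, at 5.60 and 4.90. Without slide 1 the high dose difference was 0.30 (interval -0.02 to 0.61, limma adjusted p = 0.191). With the row on the slide as a further block it was -0.13.

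Without any scaling between arrays, miR-21 was dimmer at the high dose, as were many other miRNAs. The signal intensity lay between 6152 and 7720 at the high dose, against 9339 to 17223 in controls, with no overlap. It lay between 6697 and 10389 at the middle dose and between 8548 and 11216 at the low dose, overlapping the controls in both. The unscaled log2 difference was -0.72 at the high dose (limma adjusted p = 0.0128), and the slope fell by 0.028 per mg/kg/day (limma adjusted p = 0.00574). In that unscaled fit 33.2% of tested miRNAs were called lower at the high dose and 50% in the trend, and the median miRNA differed by -0.47 at the high dose. With the array's signal level as a covariate, miR-21 differed by -0.37 at the high dose (limma unadjusted p = 0.0275, adjusted p = 0.318). Scaled to the labelling spike-ins, the high dose difference was 0.05.

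The dimmer probe of miR-21 gave log2 differences of -0.05, 0.03 and -0.07 at the high, middle and low dose. Its levels averaged 3.38 ± 0.48, 3.42 ± 0.21 and 3.44 ± 0.25 at those doses and 3.52 ± 0.06 in controls (SD, n = 5, 4, 5 and 5). The distance between the probes followed the slide. It was 2.03 to 2.17 on slide 1, 1.43 to 1.94 on slide 2 and 1.38 to 1.57 on slide 3, in log2 units. The high dose replicate 16 on slide 2, at 1.94, was also the liver with the highest scaled level of its group. Within an array, the spots of the brighter probe varied with a coefficient of variation of 4.26 to 10.5%. After dose and slide were fitted, miR-21 varied with an SD of 0.25, and 102 of the 137 miRNAs detected on all arrays varied less (median SD 0.17). In the authors' deposited value table, on the log2 scale, miR-21 averaged 12.31 ± 0.34, 12.31 ± 0.17 and 12.15 ± 0.17 at the high, middle and low dose and 12.27 ± 0.05 in controls.

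**Figure D3:**
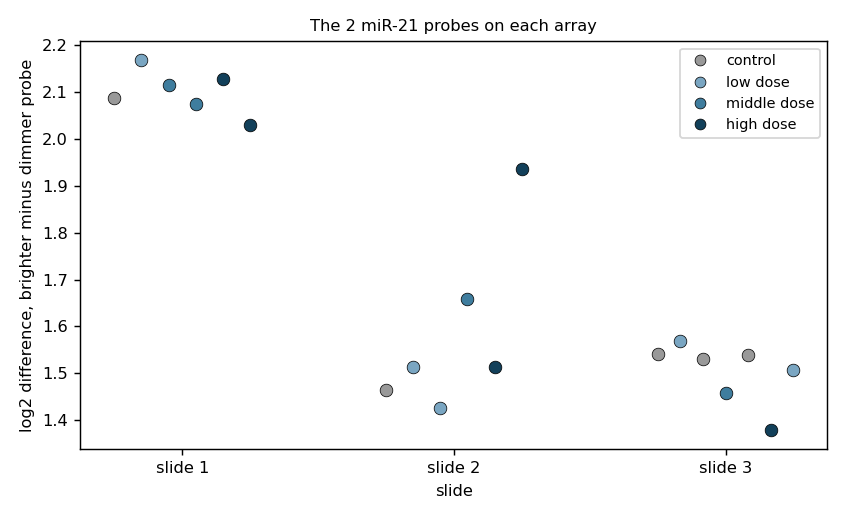
Each point is the log2 difference between the brighter and the dimmer miR-21 probe on 1 array, by slide, coloured by dose group. All 6 arrays of slide 1 lie between 2.03 and 2.17, above every array of slides 2 and 3.

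Ratios within an array need no scaling. miR-122 is the most abundant miRNA of hepatocytes, as background, and served as the hepatocyte measure. The log2 signal of miR-21 minus that of miR-122 averaged -1.51 ± 0.10 at the high dose, -1.48 ± 0.13 at the middle dose and -1.57 ± 0.14 at the low dose, against -1.38 ± 0.13 in controls (SD, n = 5, 4, 5 and 5). Each dose overlapped the controls. Within slides the differences were -0.11, -0.12 and -0.17, with adjusted exact permutation p of 0.333, 0.333 and 0.175 over 2 ratios and 3 doses.

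miR-34a, which p53 induces after DNA damage and whose mature strand is shown for contrast, gave a ratio to miR-21 that did not overlap between exposed livers and controls.
mmu-miR-34a-5p: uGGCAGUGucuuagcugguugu
The log2 signal of miR-21 minus that of miR-34a was 9.06 to 9.35 in controls, 6.02 to 8.30 at the low dose, 5.35 to 6.70 in middle dose livers and 4.70 to 6.34 in high dose livers. No exposed liver overlapped the controls, and low dose replicate 3, at 6.02, stood apart from the other low dose livers at 7.77 to 8.30. Within slides the differences were -3.69, -3.22 and -1.62 at the high, middle and low dose. Each had the smallest exact p its arrangements allow (0.0278, 0.0417 and 0.0167). Adjusted together with the ratios to miR-122, the exact p was 0.0833 at each dose and did not pass. That value was set by the number of arrangements and the p for miR-122, so a larger difference could not have lowered it. Over all arrangements, an alternative chosen after seeing the data, the adjusted exact p was 0.0159 at each dose. The size of the within-slide differences depended on the processing. They shrank to as little as -1.94, -1.58 and -0.77 at the high, middle and low dose. In controls miR-34a lay near the floor of the log2 levels, at -4.31 to -3.75 against -4.79. In the limma fit miR-34a rose by 3.49, 3.11 and 1.52 log2 units at the high, middle and low dose. Its calls at the high and middle dose held under the other 4 scalings. Its low dose call (limma adjusted p = 0.0165) did not, with a log2 difference of 1.32 to 1.45 and an adjusted p of 0.0831 to 0.412 under them.

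**Figure D4:**
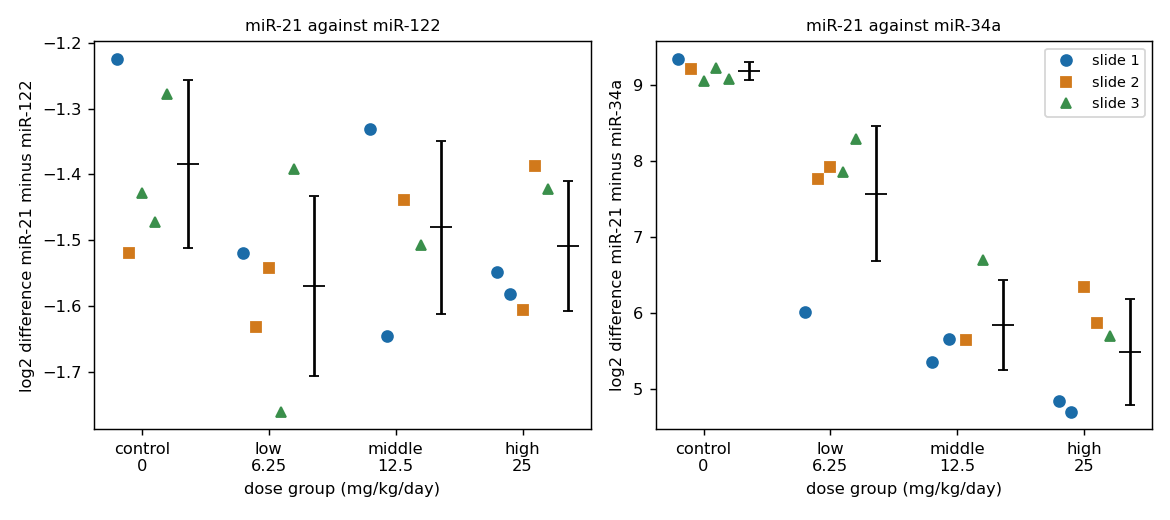
Each point is the log2 signal of miR-21 minus that of miR-122 (left) or of miR-34a (right) on 1 array, by dose group in mg/kg/day, with symbols for the slide; bars are the mean and SD. The ratio to miR-122 overlaps among all groups, while that to miR-34a is 9.06 or more in every control and 8.30 or less in every exposed liver.

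The miRNAs whose ratio to miR-21 was most constant were found by the SD of the log2 ratio over the 19 arrays, among 136 others detected on all arrays. They were miR-22 (SD 0.124), miR-122 (0.133), miR-140, known for its role in cartilage (0.135), miR-7a, known from endocrine cells (0.137), and miR-192, a miRNA of liver and gut epithelium (0.148), against a median SD of 0.263. None of these 5 was called at any dose. They were picked on these same arrays for varying together with miR-21, which had no call, so this was largely set by the selection. At the other end, the ratio to miR-34a had an SD of 1.64.

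Of miRNAs linked to inflammation, 5 of 9 were tested and 1 rose at each dose. It was miR-223, a miRNA of myeloid cells, at 0.39, 0.48 and 0.37 log2 units at the high, middle and low dose (limma adjusted p = 0.0482, 0.0198 and 0.0382). Without scaling, miR-223 was lower than in controls at the high and middle doses (-0.32 and -0.09), and it was -0.0052 at the middle dose with the percentile taken over all probes. Its adjusted p from limma was 0.199 or more at every dose under quantile normalization, spike-in scaling, the percentile of all probes and no scaling. The list's median log2 difference was 0.03, 0.17 and 0.08 at the high, middle and low dose. Over all 208 tested miRNAs, the share called was 2.4, 5.77 and 4.33% in that order. miR-146a, a feedback inhibitor of innate immune signalling, differed by 0.15, 0.17 and 0.28, and none of these passed. The remaining tested members split in direction and had no call. In the same order of doses, miR-125b-5p differed by 0.03, 0.19 and 0.08, miR-31 by -0.33, -0.31 and -0.04, and miR-203 by -0.26, -0.11 and 0.01. miR-155, miR-132, miR-146b and miR-147 were detected on no array.

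Of miRNAs raised in liver tumours, 6 of 12 were tested, and 0, 1 and 1 rose at the high, middle and low dose. These were miR-93 at the middle dose (0.24, limma adjusted p = 0.0339) and miR-20a at the low dose (0.27, limma adjusted p = 0.0380), both of the miR-17 family, which promotes cell cycle entry. With the percentile taken over all probes, the miR-93 difference was -0.25, and without scaling it was -0.34. Under the same other scalings neither call held, with a limma adjusted p of 0.226 or more for miR-93 at the middle dose and 0.739 or more for miR-20a at the low dose. miR-221, which lowers cell cycle inhibitors, differed by 0.02, 0.04 and 0.17 at the high, middle and low dose and did not pass. The list's median was 0.05, 0.15 and 0.12. Among the 6, miR-18a sat at the floor on every array, so it could not be called, and it counts in this median. With 2.4, 5.77 and 4.33% of all 208 tested miRNAs called, 0 or 1 call says little about a list of 6.

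Of fibrosis-linked miRNAs, 10 of 11 were tested and none was called at any dose, with a median of -0.01, 0.25 and 0.14 at the high, middle and low dose. With 2.4, 5.77 and 4.33% of all 208 tested miRNAs called, no call among 10 says little about this list. miR-29a, which represses collagens, differed by -0.17, -0.07 and 0.02, and miR-199a-3p, a miRNA of stellate cells, by -0.07, 0.28 and 0.17. Of p53-linked miRNAs, 7 of 11 were tested and 1 of them, miR-34a, rose at all doses, at the low dose under the scaling used here but none of the other 4. The list's median was -0.05, -0.01 and 0.06.

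Markers of the cell types in the tissue were read beside miR-21. Over all 208 tested miRNAs, 2.4, 5.77 and 4.33% were called at the high, middle and low dose, so few calls in short lists say little. All 5 hepatocyte miRNAs were detected on all arrays and none was called. Of leukocyte miRNAs, 3 of 5 were tested and miR-223 rose, under the scaling used here and none of the other scalings. At the high, middle and low dose, miR-142-3p differed by 0.12, 0.20 and 0.19 and miR-142-5p by -0.08, 0.01 and 0.26, with no call. Under the scaling used here, the log2 sum over the leukocyte list was 0.03 to 0.54 at the high dose and 0.12 to 0.50 at the middle dose. It was 0.30 to 0.41 at the low dose, against -0.15 to 0.30 in controls. Of the endothelial strands, miR-126-3p rose at the low dose (0.29, limma adjusted p = 0.0268), with an adjusted p of 0.0817 or more under the other scalings. Its partner strand miR-126-5p, detected on 9 arrays and near the floor at a mean level of -4.77, had no call. The tested erythroid, stellate, bile duct and muscle miRNAs had no call, and the pancreas miRNAs miR-216a and miR-217 were detected on 0 arrays. The part of cell composition in the level of miR-21 was not tested.

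**Figure D5:**
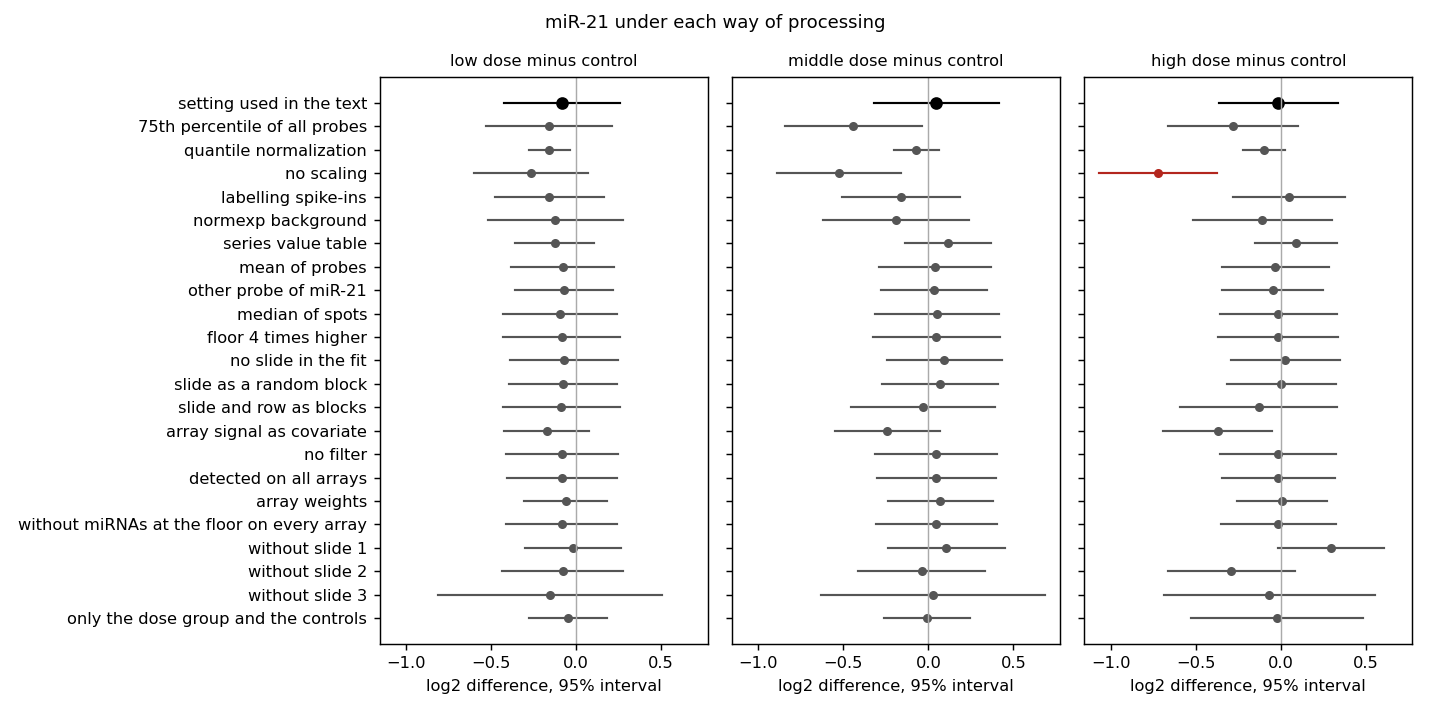
The log2 difference of miR-21 from control with its 95% interval at the low, middle and high dose, 1 row for each way of processing, with red for a limma adjusted p under 0.05. The red one is the unscaled high dose difference of -0.72.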

How the data were processed

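The deposited scanner files hold 1 signal intensity per spot, with background removed by the scanner software, Agilent Feature Extraction 10.7.3.1, and without scaling between arrays, per the file headers. The authors' deposited value table is on the log2 scale, by a method not given in the sources used here. RNA (100 ng per sample) carried the dye Cyanine 3-pCp, per the labels.

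Of 14635 spots per array, 13920 were used, without 222 to 393 outlier spots. There were 0 saturated spots. Spots were averaged by probe (1937 probes), scaled to the array's 75th percentile over the 220 probes well above background on all arrays, raised to a floor of -4.79 and put on the log2 scale. A miRNA was read by its brightest probe. Detection on at least 4 arrays left 208 of 696 miRNAs, with 137 detected on all arrays and 453 on none. Of the 208, 23 sat at the floor on every array and have no spread. They were kept in the fit, and leaving them out is an alternative chosen after seeing the data.

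The comparisons used limma (version 3.58.1, R 4.3.3), the slide as a block and Benjamini-Hochberg adjustment over 208 miRNAs; the procedure was tested on simulated data. Tests were two-sided except F, and exact permutation tests used miR-21 or its ratios. The files had no mean signal column, so normexp (offset 50) used the median signal. Named miRNAs were miR-21, its strand and seed partners, miR-34a, miR-122, the 5 with the most constant ratio to miR-21, and part of the 4 brightest tested members of each list. Others were named after their values were seen. Not all of the 4 brightest members were named, so those named do not stand for their list. Members and lists were chosen with earlier results of these data known. Labels describe 5 animals per dose, and 4 middle dose arrays were analysed here. The number of arrays limits the precision. Alternatives covered scaling, background, probes, filters, blocks, weights and each array or slide left out.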

Additional observations from a re-analysis of the deposited data

Results flagged for a closer look

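In 28 checks of a group's values for 1 array far from the others, 3 stood out, where chance marks about 1 in 20. The log2 ratio of miR-21 to miR-34a in low dose replicate 3 was 6.02, against 7.77 to 8.30 in the other low dose livers. The log2 distance between the miR-21 probes was 2.17 in low dose replicate 3, against 1.43 to 1.57 in the other low dose livers, and 2.09 in control replicate 1, against 1.46 to 1.54 in the other controls. Both arrays lay on slide 1, where all 6 arrays had a distance of 2.03 to 2.17.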

How the results depend on the processing

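Of 315 alternative fits of the limma results of miR-21, 2 passed the threshold, both without scaling: -0.72 at the high dose and -0.028 per mg/kg/day. The exact test over all arrangements also passed without scaling (-0.81 at the high dose, adjusted exact p = 0.0238). Directions turned under many alternatives, and the cause was not tested.

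With the 75th percentile of all probes, middle dose was -0.44, trend -0.011, middle minus low -0.28, high minus low -0.12 and high minus middle 0.16, with exact differences of -0.26 (high) and -0.40 (middle). With quantile normalization, under which miR-21 takes few distinct values, middle was -0.070, trend -0.0022, and the exact differences -0.094 and -0.083. Without scaling, middle was -0.53, middle minus low -0.26, high minus low -0.46 and the exact middle difference -0.62. With spike-ins, high was 0.050, middle -0.16, middle minus low -0.0021, high minus middle 0.21, exact middle -0.14 and within-slide high 0.081. With normexp, middle was -0.19, trend -0.0032, middle minus low -0.070, high minus middle 0.085, and exact -0.12 and -0.20. In the value table, high was 0.090, the mean of doses 0.026, and within slides 0.071 (high) and 0.049 (middle). The mean of probes gave a trend of -0.00012 and exact differences of -0.055 and -0.0041; the dimmer probe a trend of -0.00090. High was 0.028 with no slide term (mean 0.017), 0.0046 with a random slide block and 0.0058 with array weights (mean 0.0046). Slide and row gave middle -0.031 and trend -0.0052, and array signal gave middle -0.24 and trend -0.013. Without slide 1, high was 0.30 and the mean 0.13; without slide 2, middle -0.040 and trend -0.011; without slide 3, trend -0.00016. With the middle dose and controls alone, middle was -0.0090. Over all arrangements, the ratio to miR-34a differed by -3.70, -3.35 and -1.61 at the high, middle and low dose and passed.

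Leaving out 1 array at a time gave differences from control of -0.13 to 0.13 (high), -0.053 to 0.20 (middle), -0.19 to 0.036 (low) and -0.12 to 0.12 (mean of doses), a trend of -0.0042 to 0.0055 and an F of 0.080 to 0.64. Between doses it gave 0.076 to 0.19 (middle minus low), -0.058 to 0.19 (high minus low) and -0.17 to 0.086 (high minus middle). The exact differences were -0.077 to 0.14, 0.031 to 0.21 and -0.13 to 0.041 at the high, middle and low dose, and within slides -0.28 to 0.28, -0.11 to 0.12 and -0.13 to 0.020. The ratio to miR-122 differed by -0.18 to -0.0043, -0.19 to -0.037 and -0.24 to -0.10, and that to miR-34a by -3.97 to -3.28, -3.73 to -2.88 and -1.84 to -1.16.

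The miRNAs called at the high, middle and low dose numbered 4, 11 and 8 without the 23 at the floor on every array, where miR-21 again had no call. With no filter on detection, miRNAs with no spread could not be tested and were left out. Leaving out 1 array moved these counts to 1 to 23, 2 to 36 and 0 to 13, and the other alternatives to 1 to 70, 1 to 36 and 0 to 14. The counts for the mean of doses, the trend and the F test were 17, 2 and 2, with ranges of 1 to 41, 1 to 105 and 1 to 30 over the other alternatives. No paired analysis was possible because the groups share no replicate number in the labels.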
